A study of Mus musculus with 4 samples.

Results

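Intronic H3K36me3 peaks of mid-sized genes are the subject here. They are peaks on chromosomes 1 to 19 whose midpoint lay inside a protein-coding gene of 10 kb to under 100 kb, outside every annotated exon, and more than 1 kb from the start of any protein-coding transcript. Where genes overlapped, the peak was given to the longest. By this rule, 5716 of 12242 peaks of the control list (46.7%, 95% Wilson interval 45.8 to 47.6) and 1147 of 2732 peaks of the Setd2-KO list (42.0%, 95% interval 40.1 to 43.8) were intronic peaks of this kind, in 2344 and 778 host genes. The peaks were chosen by position alone, with GENCODE mouse release M21 on the GRCm38 assembly, and no measured value entered the choice. They come from chromatin immunoprecipitation and sequencing (ChIP-seq) of H3K36me3 in primary renal tubular epithelial cells (PTECs), taken from the kidney cortex of C57BL/6 mice. Control PTECs were Setd2 fl/fl, with both Setd2 alleles floxed and no Cre, and Setd2-KO PTECs were Setd2 fl/fl KspCre/+, the same floxed alleles with 1 copy of a Cre transgene driven by the kidney-specific Ksp promoter, so the floxed alleles were common to both groups. The animals' age, and how many animals gave the cells, were not used here. With 1 ChIP and 1 input library per genotype, there was no replicate and no test between genotypes. All 95% intervals cover counting error only and treat peaks as independent, although many share a gene. Read numbers of the libraries were not used here.

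H3K36me3 is trimethylation of lysine 36 on histone H3. SETD2 places it while it travels with elongating RNA polymerase II, so the mark builds up along the bodies of transcribed genes, is low at their starts and rises toward their ends. The mark is bound by readers that restrain new transcription starts inside genes and by proteins that meet the splicing machinery, and nucleosomes are known to be denser over exons than over introns. Introns make up most of the length of a mammalian gene, so they are where most of the marked chromatin can lie.

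The sequence at exon edges inside these peaks is shown first, since 40.2% of control intronic peaks (2298 of 5716, 95% interval 38.9 to 41.5) reached into an exon although their midpoint was intronic. Each window has 240 bases of the GRCm38.p6 assembly of RefSeq, 5′ to 3′ on the strand of the gene, with coding exon bases in capitals and intron bases in lower case. The peaks were the control peak of highest fold enrichment, in Zfp110, which also held the longest Setd2-KO peak at the same edge, the longest control peak, in Zfp810, and the strongest peaks crossing a coding exon edge in Supt6 and Setd2 (control) and Tln1 (Setd2-KO).
Zfp110 exon 5 donor edge, chr7:12844786-12845025, plus strand: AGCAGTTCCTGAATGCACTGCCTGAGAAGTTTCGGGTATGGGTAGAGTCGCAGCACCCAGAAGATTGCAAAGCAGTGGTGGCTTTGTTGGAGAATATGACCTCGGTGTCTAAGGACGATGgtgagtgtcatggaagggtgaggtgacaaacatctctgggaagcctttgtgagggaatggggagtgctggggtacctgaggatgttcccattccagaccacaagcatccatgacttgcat
Zfp810 exon 8 acceptor edge, chr9:22279161-22279400, minus strand: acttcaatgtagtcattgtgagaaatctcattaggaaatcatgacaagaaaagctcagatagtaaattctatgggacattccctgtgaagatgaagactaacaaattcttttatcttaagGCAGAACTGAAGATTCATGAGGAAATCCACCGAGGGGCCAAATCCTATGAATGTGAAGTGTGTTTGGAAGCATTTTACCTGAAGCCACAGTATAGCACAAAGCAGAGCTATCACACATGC
Supt6 exon 18 acceptor edge, chr11:78224616-78224855, minus strand: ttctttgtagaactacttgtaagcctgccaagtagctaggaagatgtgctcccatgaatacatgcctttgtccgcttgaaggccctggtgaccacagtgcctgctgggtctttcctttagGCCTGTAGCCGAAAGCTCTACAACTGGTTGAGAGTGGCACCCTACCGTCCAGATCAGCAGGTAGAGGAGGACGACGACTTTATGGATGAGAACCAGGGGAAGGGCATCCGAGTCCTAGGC
Setd2 exon 4 acceptor edge, chr9:110552983-110553222, plus strand: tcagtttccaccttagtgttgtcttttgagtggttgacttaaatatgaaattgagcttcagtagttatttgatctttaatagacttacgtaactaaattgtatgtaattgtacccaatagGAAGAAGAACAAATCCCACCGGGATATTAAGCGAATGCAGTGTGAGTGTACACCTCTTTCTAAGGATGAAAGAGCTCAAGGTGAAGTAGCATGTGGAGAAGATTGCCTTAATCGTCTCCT
Tln1 exon 10 acceptor edge, chr4:43553022-43553261, minus strand: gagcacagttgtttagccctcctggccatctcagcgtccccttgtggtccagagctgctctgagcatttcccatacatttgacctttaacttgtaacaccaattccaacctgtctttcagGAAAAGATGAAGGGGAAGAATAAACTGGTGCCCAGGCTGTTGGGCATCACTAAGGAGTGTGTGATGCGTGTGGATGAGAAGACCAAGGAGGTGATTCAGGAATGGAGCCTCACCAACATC
At each acceptor edge the intron ended in ag, and at the Zfp110 donor edge it began with gt, the usual splice site bases. The exon side had the higher GC content in Zfp810 (45.0% against 32.5%), Supt6 (56.7% against 49.2%) and Setd2 (44.2% against 30.8%). The sides were close in Tln1 (50% and 49.2%), and the intron side was the higher in Zfp110 (50.8% and 52.5%). The edge lay 17 bp from the peak's summit in Supt6, 139 bp in Tln1, 349 bp in Zfp110, 516 bp in Zfp810 and 552 bp in Setd2.

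Windows inside introns are shown in the same way, as 240 bases around the summit, with CG dinucleotides, the sites of DNA methylation, in capitals. They were the control peak farthest from any exon, in Hs6st1, the Setd2-KO peak farthest from any exon, in 2610008E11Rik, and the Setd2-KO peak of highest fold enrichment, in Zfp712. None of these windows held an annotated exon base.
Hs6st1 intron 1, chr1:36085867-36086106, plus strand: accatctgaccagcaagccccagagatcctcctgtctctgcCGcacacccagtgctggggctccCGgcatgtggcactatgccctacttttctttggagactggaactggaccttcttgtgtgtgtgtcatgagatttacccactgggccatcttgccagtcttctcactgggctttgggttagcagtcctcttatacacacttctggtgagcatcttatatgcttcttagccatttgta
2610008E11Rik intron 4, chr10:79078495-79078734, minus strand: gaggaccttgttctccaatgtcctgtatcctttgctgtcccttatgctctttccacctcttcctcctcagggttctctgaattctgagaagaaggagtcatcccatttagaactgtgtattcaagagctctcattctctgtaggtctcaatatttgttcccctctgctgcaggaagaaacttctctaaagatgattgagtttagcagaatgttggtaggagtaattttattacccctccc
Zfp712 intron 3, chr13:67043895-67044134, minus strand: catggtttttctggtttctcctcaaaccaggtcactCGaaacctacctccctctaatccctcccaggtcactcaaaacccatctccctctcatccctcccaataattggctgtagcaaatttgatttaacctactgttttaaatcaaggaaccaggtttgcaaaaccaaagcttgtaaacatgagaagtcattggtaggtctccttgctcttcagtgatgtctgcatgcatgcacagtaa
The Hs6st1 window had 2 CG dinucleotides, the Zfp712 window 1, and the 2610008E11Rik window 0. The Hs6st1 summit lay close to the end of its peak, so part of that window is outside it. Fold enrichment, the summit pileup over the local background with 1 added to each, was 2.69 at the Hs6st1 peak, 3.25 at the 2610008E11Rik peak and 7.82 at the Zfp712 peak.

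The control list held 4.98-fold as many intronic peaks as the Setd2-KO list (5716 and 1147, 95% interval of the ratio 4.68 to 5.31). Other peaks were also fewer, so this is not particular to intronic peaks. The whole lists held 12242 and 2732 peaks. Genes of the same length had 2788 and 705 peaks with the midpoint in an exon, and genes of 100 kb or more 1501 and 260 intronic peaks. Every chromosome from 1 to 19 had fewer in Setd2-KO PTECs, with ratios from 3.21 on chromosome 17 and 3.74 on chromosome 13 to 6.4 on chromosome 11. The genome-wide background pileup, taken as the lowest local background of each list, was 6.58 fragments (control) and 6.54 fragments (Setd2-KO). It is not a read number, so the depth of the libraries was not compared. In bulk cells, fewer cells with the mark and less mark per cell cannot be told apart. Called peaks covered 2879 kb in control and 538 kb in Setd2-KO PTECs. The peaks that were called had similar values in each list, with a median fold enrichment of 3.83 in control PTECs (quartiles 3.48 and 4.22), one of 3.85 after Setd2 loss (quartiles 3.55 and 4.24), and a median summit pileup of 30 fragments in both. Setd2-KO peaks were shorter, at a median of 374 bp (95% interval 365 to 384) against 407 bp (95% interval 402 to 412). Because a peak enters a list only above a calling threshold, similar medians do not show that sites called in both genotypes kept their level.

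Intronic peaks were rare in the first intron and common in later ones. Introns were numbered along 1 reference transcript per gene, which placed 5630 control and 1130 Setd2-KO peaks. The median control peak lay in intron 8 (quartiles 5 and 13) of a transcript with a median of 14 introns, and the median Setd2-KO peak in intron 7 (quartiles 4 and 12) of 13. The first intron held 69 control peaks (1.23%, 95% interval 0.970 to 1.55) and 24 Setd2-KO peaks (2.12%, 95% interval 1.43 to 3.14). First introns are long, and they made up 22.0% of the eligible bases of the control host genes and 21.3% of those of the Setd2-KO host genes, where eligible bases are all those in which a midpoint would meet the rule. The stretch within 1 kb of a start is already left out of both figures. When each gene's base share was weighted by its number of peaks, the first intron still had 18.5% of control and 19.7% of Setd2-KO bases, and when each host gene counted once, 1.29% of control peaks lay there.

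The control share of peaks was below the share of bases in the second intron, near it in the third and above it from intron 4 on. In the third intron the control interval of 8.03 to 9.50 contained the base share, and the Setd2-KO interval of 9.04 to 12.6 lay above its own. The second intron held 4.69% of control peaks in 11.9% of the bases, the third 8.74% in 8.45%, introns 4 to 6 27.4% in 18.8%, and introns 7 and later 58.0% in 38.9%. In Setd2-KO PTECs the same classes held 5.04%, 10.7%, 28.8% and 53.4% of peaks, against 10.8%, 7.86%, 17.2% and 42.8% of the bases of their host genes. The last intron held 12.1% of control peaks (95% interval 11.3 to 13) and 13.6% of Setd2-KO peaks (95% interval 11.8 to 15.8), with 6.31% and 5.76% of the bases. The intervals of the genotypes overlapped in each of these classes except introns 7 and later, where the control interval of 56.7 to 59.3 lay above the Setd2-KO interval of 50.4 to 56.3.

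**Figure D1:**
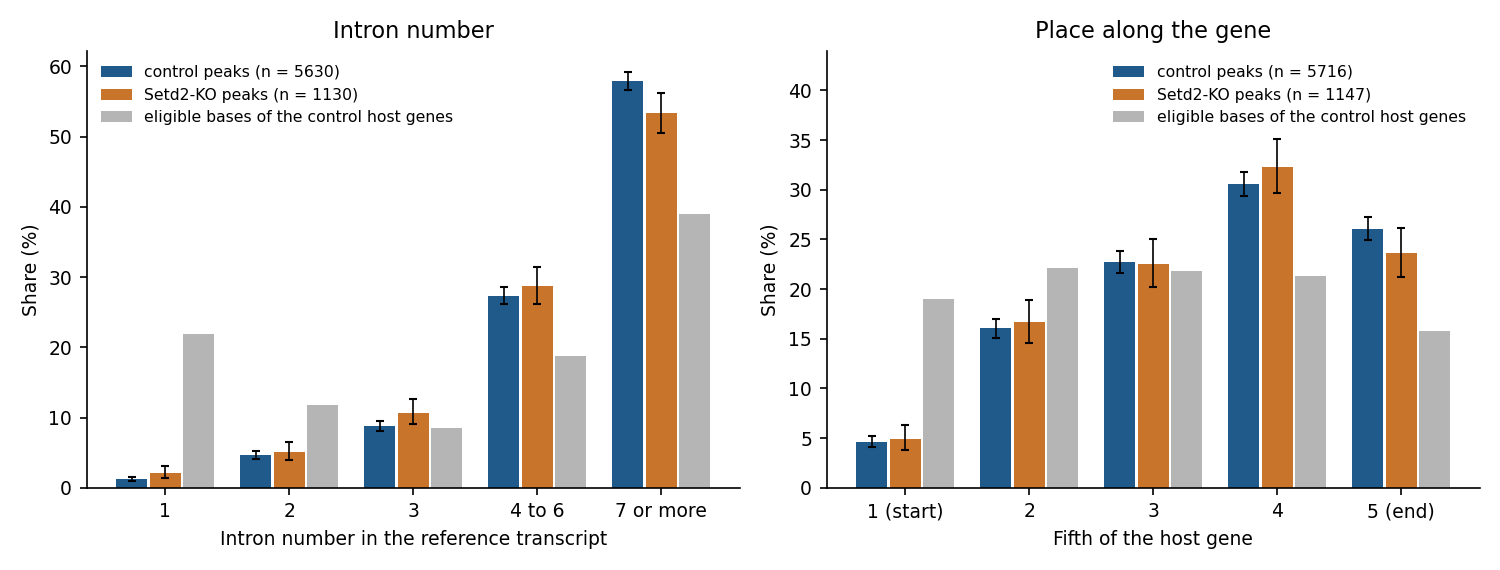
Share of intronic H3K36me3 peaks (%, bars with 95% Wilson intervals) by intron number (left) and by 5 equal parts of the host gene from start to end (right) in control and Setd2-KO PTECs, beside the share of eligible bases of the control host genes (grey, no error since every base is counted). The first intron held 1.23% of control and 2.12% of Setd2-KO peaks in 22.0% of the bases, and the part nearest the start 4.6% and 4.88% in 19%.

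Along the host gene the same pattern held by position. With each gene cut into 5 equal parts, the part nearest the start had 4.6% of control peaks in 19% of the bases, followed by 16.1%, 22.7%, 30.6% and 26.1% in the parts toward the end. The last 2 parts had 21.3% and 15.8% of the bases, which put the control peaks at 1.65 times the share of bases in the part at the end and 1.44 times in the part before it. The Setd2-KO shares were 4.88%, 16.7%, 22.5%, 32.3% and 23.6%, where the last 2 parts stood at 1.48 times their share of bases at the end and 1.52 times before it. The intervals of the genotypes overlapped in each part. Within a single intron the peaks leaned toward its 5′ end. The first of 5 equal parts of the intron held 32.7% of control peaks in 17.7% of the bases and the last 13.8% in 20.3%. The nearest exon of the reference transcript lay downstream of the midpoint for 35.7% of control peaks (95% interval 34.5 to 37.0) and 34.4% of Setd2-KO peaks, and upstream for the others.

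Most intronic peaks lay close to an exon. The distance from the midpoint to the nearest annotated exon of any gene had a median of 323 bp (95% interval 311 to 339, quartiles 129 and 700) in control and 338 bp (95% interval 299 to 366, quartiles 121 and 728) in Setd2-KO PTECs, where the median eligible base of the host genes lay 944 bp and 901 bp away. Within 1 kb of an exon lay 84.8% of control peaks (95% interval 83.9 to 85.8) and 83.1% of Setd2-KO peaks (95% interval 80.8 to 85.1), in 51.7% and 53.1% of the eligible bases. Weighting each gene's bases by its peaks raised these base shares to 61.0% and 59.5%.

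The excess was largest next to the exon and turned into a deficit beyond 1 kb. Midpoints up to 200 bp from an exon made up 35.7% of control peaks in 15.7% of the bases, 2.28 times the base share. The ratio was 1.64 over 200 to 500 bp, 1.11 over 500 to 1000 bp, 0.558 over 1000 to 2000 bp and 0.145 beyond 2000 bp, where 236 control peaks (4.13%) lay in 28.5% of the bases. In Setd2-KO PTECs the ratios were 2.17, 1.58, 1.04, 0.540 and 0.231. Beyond 2000 bp lay 72 Setd2-KO peaks (6.28%, 95% interval 5.01 to 7.83), above the control interval of 3.64 to 4.68, and when each host gene counted once the shares were 3.95% (control) and 5.02% (Setd2-KO). These intervals treat peaks of 1 gene as independent. Among Setd2-KO intronic peaks, 2610008E11Rik had 8 at a median of 7132.5 bp and CT030661.1 10 at a median of 4220 bp, and their part was not tested. Over 5 kb from an exon were 38 control peaks (0.665%) in 10.1% of the bases and 18 Setd2-KO peaks (1.57%) in 9.26%. Weighting each gene's bases by its peaks lowered the base shares to 19.6% (control) and 20.8% (Setd2-KO) beyond 2000 bp and to 5.32% and 5.83% over 5 kb. Short introns of under 1 kb held 23.1% of control peaks in 7.48% of the bases, and introns of 10 kb or more held 4.23% in 29.1%. Intron length, intron number and distance to an exon move together in these genes, and their separate parts were not tested.

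**Figure D2:**
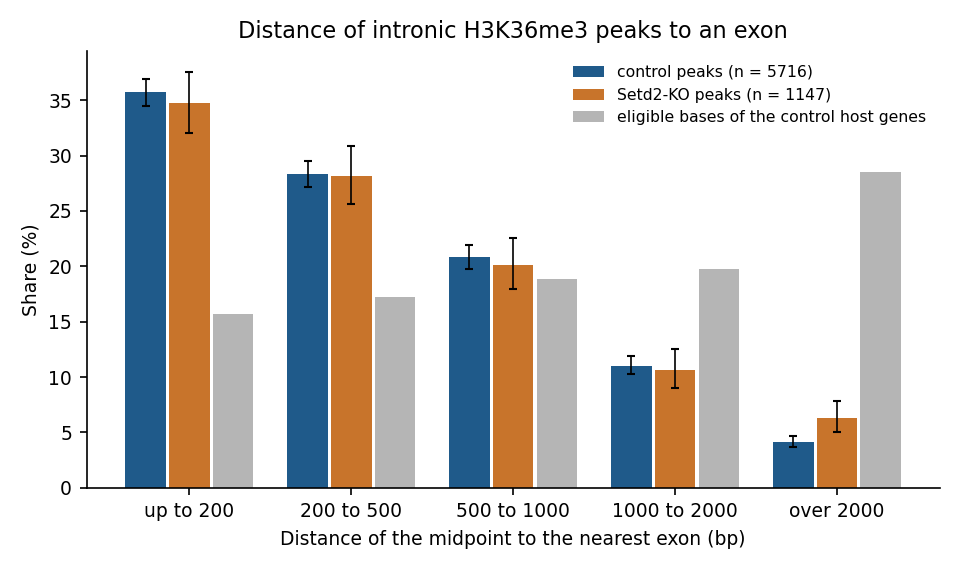
Share of intronic peaks (%, bars with 95% Wilson intervals) by distance from the midpoint to the nearest annotated exon (bp) in control and Setd2-KO PTECs, beside the share of eligible bases of the control host genes (grey). Peaks exceeded bases up to 1000 bp (35.7% against 15.7% in the nearest class) and fell short beyond (4.13% against 28.5% in the farthest).

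The peaks farthest from exons lay in few genes. The control peak of Hs6st1, a heparan sulfate 6-O-sulfotransferase gene, lay 15865 bp from any exon in an intron of 34328 bp and had a summit pileup of 25. That of Wac, on chromosome 18, lay 14787 bp away in intron 3 at a fold enrichment of 3.41. Neither overlapped a Setd2-KO peak. In Desi2, a gene of the deSUMOylating peptidase family, a control peak 9527 bp from an exon in the first intron had a fold enrichment of 5.14 and a length of 918 bp, and a Setd2-KO peak of 564 bp at the same place had 3.66. All other places among the 5 farthest peaks of each list were held by intron 4 of 2610008E11Rik.

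Peaks differed in base composition from the introns around them. The GC content over the bases of control intronic peaks was 46.1%, against 43.2% over the eligible bases of their host genes, and 72.9% of peaks (95% interval 71.8 to 74.1) exceeded the GC content of the eligible bases of their own gene, by a median of 2.45 percentage points. Peaks with no exon base exceeded their gene in 69.6% of cases, by a median of 2.01 points. In Setd2-KO PTECs the values were 44.8% against 42.4%, with 71.7% of peaks above their own gene. Repeats, as soft-masked in RefSeq, covered 26.8% of the bases of all control intronic peaks, 34.1% of the bases of those with no exon base, and 30.0% of the eligible bases.

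Of the 5716 control intronic peaks, 620 (10.8%, 95% interval 10.1 to 11.7) overlapped a Setd2-KO peak by at least 1 bp, where 12.9% of all control peaks did. Of the 1147 Setd2-KO intronic peaks, 647 (56.4%, 95% interval 53.5 to 59.3) overlapped a control peak, where 61.3% of all Setd2-KO peaks did. Both shares lay below those of peaks with the midpoint in an exon of genes of the same length, at 15.6% of 2788 control peaks (95% interval 14.3 to 17) and 64.8% of 705 Setd2-KO peaks (95% interval 61.2 to 68.3). Intronic peaks of genes of 100 kb or more overlapped at 9.13% of 1501 (95% interval 7.77 to 10.7) and 51.9% of 260 (95% interval 45.9 to 57.9), intervals that overlap those of the shorter genes. Median fold enrichment was 3.83 in each of the 3 control classes and median length 407 bp here, 421 bp at exons and 392 bp in the longer genes. Peaks of the longer genes lay a little farther from exons, at a median of 381 bp (95% interval 350 to 412), with 2.80% (95% interval 2.07 to 3.77) in the first intron. Just inside and just outside the length limit the shares had overlapping intervals. Control intronic peaks of genes of 90 to under 100 kb overlapped at 7.11% of 225 (95% interval 4.42 to 11.2) and of 100 to under 110 kb at 10.4% of 230 (95% interval 7.11 to 15.1).

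Strong and long control intronic peaks were called again most often. The share overlapping a Setd2-KO peak was 7.11% at a fold enrichment under 4 (3741 peaks), 13.7% from 4 to under 5 (1699 peaks) and 43.8% at 5 or more (276 peaks, 95% interval 38.1 to 49.7). By length it was 5.96% under 400 bp, 11.9% from 400 to under 1000 bp and 46.8% of the 293 peaks of 1000 bp or more. A longer peak can be met at more bases, and the part of length alone in the overlap was not tested. Peaks that were the single control intronic peak of their gene overlapped in 6.51% of 1045 cases, and those of genes with 10 or more in 18.2% of 417. Peaks reaching into an exon overlapped in 14.2% of 2298 cases and those with no exon base in 8.60% of 3418, and the former were longer, with a median of 468 bp against 379 bp. Beyond 2000 bp from an exon the share was 19.9% (47 of 236 peaks), against 8.57% over 1000 to 2000 bp. Single genes with many far peaks can weigh in this small class. In 2610008E11Rik, at a median of 4566.5 bp from an exon, 10 of 16 control intronic peaks overlapped. In CT030661.1, at a median of 4597 bp, 6 of 9 did. Their part in the share was not tested. Among hosts that encode zinc finger proteins by their symbol (Zfp, Zscan, Zkscan, Zik), 80 of 235 control intronic peaks (34.0%, 95% interval 28.3 to 40.3) overlapped. In hosts with other symbols 540 of 5481 (9.85%) did. Symbols alone set these classes, so a zinc finger gene with another symbol counts among the latter.

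**Figure D3:**
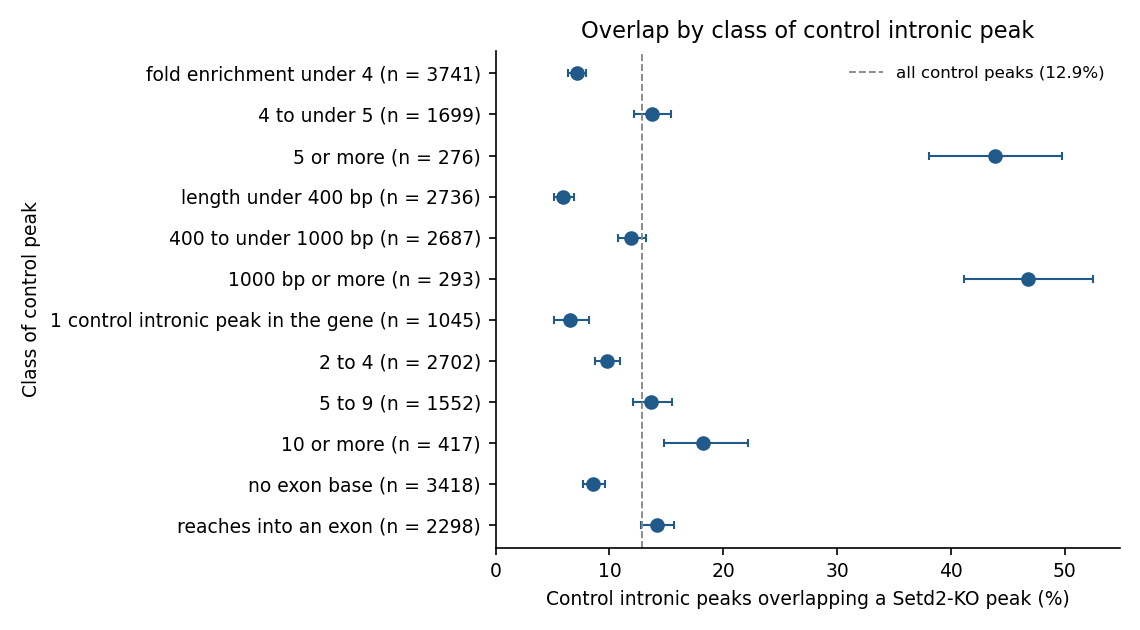
Share of control intronic peaks overlapping a Setd2-KO peak by at least 1 bp (%, points with 95% Wilson intervals) by fold enrichment, length, number of control intronic peaks in the gene and contact with an exon. The dashed line is the share among all control peaks, 12.9%, and peaks of fold enrichment 5 or more (43.8%) and of 1000 bp or more (46.8%) stand far above it.

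At the 620 sites called in both genotypes, the Setd2-KO peak was usually shorter and a little weaker. Where a peak met several of the other list, it was compared with the one of highest fold enrichment, even at few shared bases. Median fold enrichment was 4.09 in control (quartiles 3.65 and 4.75) and 3.92 in Setd2-KO PTECs (quartiles 3.58 and 4.36), with the Setd2-KO value lower at 362 sites (58.4%). Median length was 576 bp and 431 bp, and the Setd2-KO peak was shorter at 432 sites (69.7%). Among the 121 sites with a control fold enrichment of 5 or more, the Setd2-KO value was lower at 110 (90.9%). These sites were picked by their control value, so the count is a description only. Summits lay a median of 193 bp apart and within 200 bp at 322 sites. The overlapping Setd2-KO peak was itself intronic by the same rule at 528 of the 620 sites and had its midpoint in an exon at 89.

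**Figure D4:**
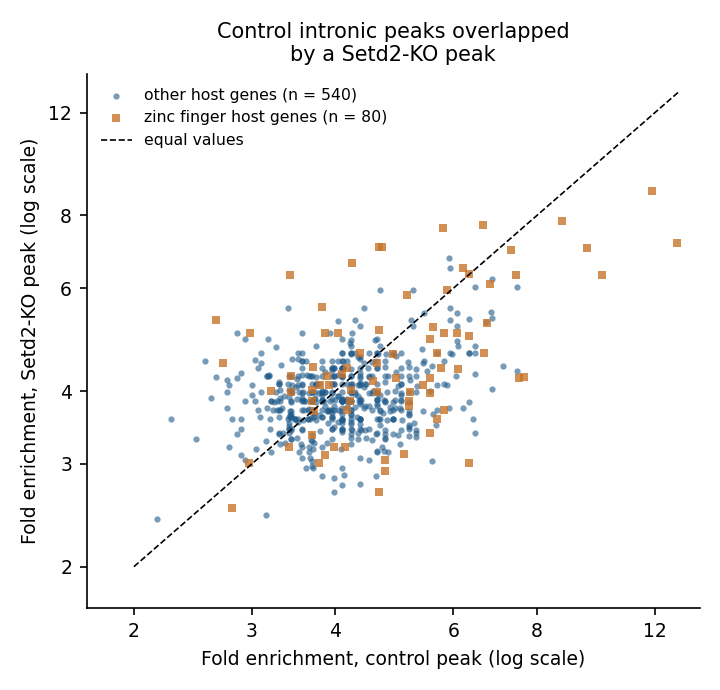
Fold enrichment of 620 control intronic peaks (x axis, log scale) and of the Setd2-KO peak overlapping each (y axis, log scale), with the 80 in zinc finger genes as squares and a dashed line at equal values. The highest control values, above 8, all lie in zinc finger genes and below the line, and the medians are 4.09 and 3.92.

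Sites not called in the other list were set beside the genes of that list, which differ in number. Of all genes of that length, 2344 (21.0%) had a control intronic peak and 778 (6.99%) a Setd2-KO one. The shares below are therefore not on the same scale, and the part of list size in them was not tested. Of the 500 Setd2-KO intronic peaks that no control peak overlapped, 411 (82.2%, 95% interval 78.6 to 85.3) lay in a gene that had a control intronic peak elsewhere, and 132 of the 494 placed on the reference transcript (26.7%) in the same intron as one. Of the 5096 control intronic peaks that no Setd2-KO peak overlapped, 1898 (37.2%, 95% interval 35.9 to 38.6) lay in a gene with a Setd2-KO intronic peak. In the same intron as one lay 277 of the 5018 placed on the reference transcript (5.52%).

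By gene, 2344 of 11136 protein-coding genes of 10 kb to under 100 kb (21.0%) had a control intronic peak and 778 (6.99%) a Setd2-KO intronic peak, and 679 had both. Control peaks alone were found in 1665 genes, of which 1417 had no Setd2-KO peak of any class, and Setd2-KO peaks alone in 99, of which 53 had no control peak of any class. Within the 679 shared genes, 478 had fewer intronic peaks in Setd2-KO PTECs, 31 had more, and 592 had fewer bases under them. These counts stand beside a control list with 4.98-fold as many intronic peaks, over 2879 kb against 538 kb, so they are not particular to the shared genes. A single intronic peak was the most common state, in 1045 control (44.6%) and 558 Setd2-KO host genes (71.7%). At the other end, 30 control host genes and 1 Setd2-KO host gene had 10 or more, and 1161 control host genes had peaks in 2 or more introns.

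The 10 genes with the most control intronic peaks had 14 to 29 of them and 0 to 9 in Setd2-KO PTECs. They were picked by their control count, so the contrast is a description only. Over all genes the control list held 4.98-fold as many intronic peaks. Sptan1 (chr2:29965560-30031451), which encodes alpha-II spectrin of the membrane skeleton, had 29 in 25 of its 56 introns, from intron 1 to intron 43, and 20 of them reached into an exon. In Setd2-KO PTECs it had 9, in introns 2 to 44, of which 7 overlapped a control peak. Its median fold enrichment was 3.96 (range 2.72 to 6.09) in control and 3.62 (range 3.10 to 4.77) in Setd2-KO PTECs.

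Ass1 (chr2:31470207-31520672), argininosuccinate synthase of arginine and urea cycle metabolism, went from 26 control intronic peaks to 0 peaks of any class. Its control peaks lay in 14 of 15 introns, 3 of them in the first, and covered 21464 bp at fold enrichments of 2.89 to 5.94 and lengths of 290 to 1893 bp. Supt6, which encodes a histone chaperone that moves with RNA polymerase II, had 15 control intronic peaks (8111 bp, introns 5 to 36) and no Setd2-KO peak. Ndrg1, a gene known to be induced by low oxygen, had 13 (8227 bp), the pseudokinase gene Trib2 9 (5035 bp, 2 of them in the first of its 2 introns) and Rab11fip3, an effector of the recycling GTPase Rab11, 8 (4585 bp), all with no Setd2-KO peak. These are the 5 genes with the most control intronic bases among those with none in Setd2-KO PTECs.

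Other genes of the group had some intronic peaks in both lists. Dync1h1, the heavy chain of cytoplasmic dynein, had 18 in control and 8 in Setd2-KO PTECs, 15 and 5 of which reached into an exon, and 5 of the 8 overlapped a control peak. Atp2a2, the calcium pump of the endoplasmic reticulum, had 16 and 5, Ubr2, a ubiquitin ligase of the N-degron pathway, 22 and 3, Rnf213, a large ubiquitin ligase, 15 and 2, and Trrap, a scaffold of histone acetyltransferase complexes, 14 and 1. Of these Setd2-KO peaks, 3 of 5 in Atp2a2, 3 of 3 in Ubr2, 1 of 2 in Rnf213 and 1 of 1 in Trrap overlapped a control peak.

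Cwc22, a splicing factor gene (chr2:77881159-77946375), had 24 control intronic peaks over 28102 bp and 1 Setd2-KO peak of 326 bp, but its background differed. Its control peaks had a median summit pileup of 123 on a local background of 6.59 times the genome-wide value (up to 10.1 times), so that their median fold enrichment was only 2.68. The Setd2-KO peak had a pileup of 26 on the genome-wide background. Of the 36 control intronic peaks with a local background of at least 2 times the genome-wide value, 24 were these, and 5 such peaks were found in the Setd2-KO list, none of them in Cwc22. The part of that background in the peak number of Cwc22 was not tested.

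**Figure D5:**
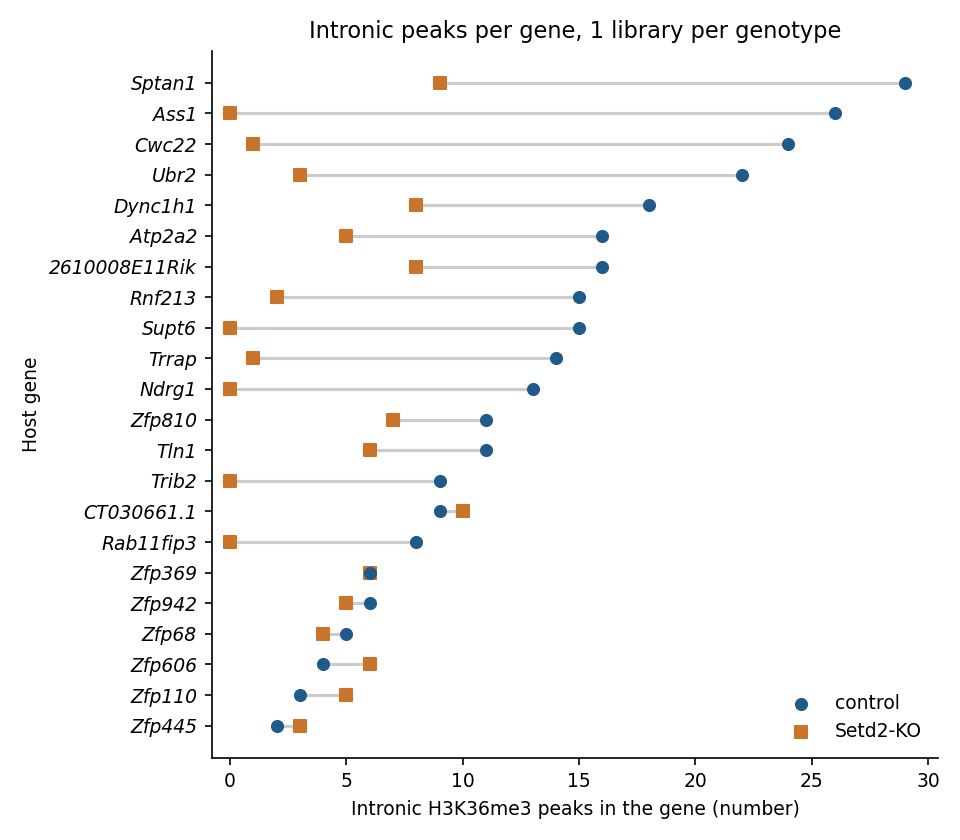
Number of intronic H3K36me3 peaks (x axis) in control (circles) and Setd2-KO PTECs (squares) for the 22 genes with the most control intronic peaks, the most Setd2-KO intronic bases, or the most control intronic bases and no Setd2-KO peak. Sptan1 went from 29 to 9 and Ass1 from 26 to 0, whereas Zfp110, Zfp445, Zfp606 and CT030661.1 had more in Setd2-KO PTECs. Under peaks of all classes the latter genes had fewer bases in Setd2-KO PTECs. Zfp110 had 13417 in control and 12304 in Setd2-KO PTECs, Zfp445 9301 and 6641, Zfp606 10143 and 8915, and CT030661.1 6815 and 6544.

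Zinc finger genes, by symbol, led the list by Setd2-KO intronic bases, with 7 of the 10 places. Zfp110 (chr7:12834761-12850577) had 3 control intronic peaks of 2993 to 6595 bp and 5 Setd2-KO intronic peaks of 505 to 6201 bp, which covered 12833 bp and 11451 bp. Its strongest peak, with its midpoint in intron 5 and reaching into 4 exons, had a fold enrichment of 12.9 in control and 7.18 in Setd2-KO PTECs. Zfp68 had 5 and 4 intronic peaks, with highest fold enrichments of 10.0 and 6.36, Zfp942 6 and 5 (7.65 and 7.61), and Zfp810 11 and 7 (11.9 and 4.64). These highest values were not at the same place. The Setd2-KO peak of Zfp68 at 6.36 overlapped a control peak at 8.78, and that of Zfp942 at 7.61 overlapped one at 5.79. The strongest control peak of Zfp810, of 8186 bp, was overlapped by a Setd2-KO peak of 4018 bp at 8.80 whose midpoint lay in an exon. Zfp606 had 4 and 6, Zfp445 2 and 3, and Zfp369 6 and 6. Under peaks of all classes, Zfp606 had 10143 bases in control and 8915 in Setd2-KO PTECs, and Zfp445 9301 and 6641. A broad peak changes class when its midpoint moves into an exon, which affects these counts: Zfp68 had 4834 intronic bases in control and 7593 in Setd2-KO PTECs, but 9392 and 8436 bases under peaks of all classes, and Zfp369 3398 and 6782 intronic bases but 10264 and 8545 over all classes. These genes share similar sequences, and how reads were assigned among them was not tested.

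The other places were held by 2610008E11Rik, CT030661.1 and Tln1. For 2610008E11Rik and CT030661.1, whose symbols name no family, the encoded proteins were not examined. 2610008E11Rik (chr10:79064374-79097600) had 16 control intronic peaks, 14 of them in its intron 4 of 19558 bp, and 8 Setd2-KO intronic peaks, all in that intron and each overlapping a control peak. The strongest control peak there (chr10:79070407-79072137, 1731 bp) had a fold enrichment of 7.47 and its Setd2-KO partner (1632 bp) 6.03, whereas near the other end of the intron a Setd2-KO peak of 539 bp had 6.76 and the control peak of 1216 bp over it 5.92. At 4 of the 8 the Setd2-KO value was the higher. CT030661.1, a gene model on chromosome 17, had 9 control and 10 Setd2-KO intronic peaks at median fold enrichments of 4.24 and 4.30, and 6 and 5 of them overlapped a peak of the other genotype. Tln1, the integrin-binding protein talin, had 11 and 6, and all 6 Setd2-KO peaks overlapped a control peak and reached into an exon. The longest control intronic peak of Tln1 was 4123 bp at a fold enrichment of 6.86, and the Setd2-KO peak there was 1421 bp at 5.33.

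Genes with Setd2-KO intronic peaks and no control peak of any class carried little. Tmem9b, a transmembrane protein gene, led with 3 peaks over 959 bp at fold enrichments of 3.10 to 3.98. Acnat1, an acyl-CoA N-acyltransferase gene, had 1 peak of 895 bp at 3.85, which lay 6395 bp from the nearest exon and outside the introns of its reference transcript. Stx17, a SNARE of autophagosomes, had 2 peaks over 736 bp, the fatty acid oxidation gene Acadl 1 of 693 bp at 3.43 in intron 2, and Ppp1r2, a regulator of protein phosphatase 1, 1 of 678 bp at 3.98 in its last intron.

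Marker genes of cell types were read only within the 10 kb to 100 kb range. Of 17 proximal tubule genes, 11 had a control intronic peak (64.7%, against 21.0% of all genes of that length) and 3 a Setd2-KO intronic peak (17.6%, against 6.99%). Ass1 is 1 of the 11. Acsm2, a medium-chain acyl-CoA synthetase gene, had 3 control intronic peaks over 2388 bp and no Setd2-KO peak. Slc34a1, the sodium-phosphate cotransporter, had 1 control peak of 1099 bp at 5.41 in intron 8 and 2 Setd2-KO peaks at 4.99 and 4.88 in introns 5 and 8, and both Setd2-KO peaks overlapped 1 control peak of 5120 bp at 12 whose midpoint lay in an exon. Slc27a2, a fatty acid transporter gene, had 4 control peaks in introns 4, 8 and 9 and 1 Setd2-KO peak of 1119 bp at 4.77 in the first intron, which overlapped a control peak of 4048 bp at 10.0 within 1 kb of a start. The transcription factor gene Hnf4a had 1 control intronic peak of 820 bp and, elsewhere in the gene, 1 Setd2-KO peak of 314 bp, which overlapped a control peak of 752 bp within 1 kb of a start. In the other lists, a control intronic peak was found in 0 of 13 genes of other nephron segments, 0 of 3 of immune cells and 0 of 8 of fibroblasts. Of 7 endothelial genes, 2 had one (28.6%, against 21.0% of all genes of that length), Eng with 2 peaks and Kdr with 1. None of these genes had a Setd2-KO intronic peak, against 6.99% of all genes. With so few genes per list, these counts do not show that other cell types were absent.

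Genes of energy metabolism were widely marked in control introns. In the TCA cycle and gluconeogenesis list, 13 of 16 genes had a control intronic peak and 6 a Setd2-KO one, with 43 and 10 peaks. Idh1, cytosolic isocitrate dehydrogenase, had 8 in control and 1 in Setd2-KO PTECs, Suclg1, a subunit of succinyl-CoA ligase, 6 and 0, Ogdh, of the oxoglutarate dehydrogenase complex, 4 and 2, and Idh3a, a subunit of the mitochondrial enzyme, 4 and 2. Mdh2, mitochondrial malate dehydrogenase, had 1 and 2, and both Setd2-KO peaks overlapped a control peak. In the fatty acid oxidation list, 12 of 18 genes had a control and 6 a Setd2-KO intronic peak, with 35 and 10 peaks. Cpt1a, which passes acyl groups into mitochondria, had 7 and 4, and the electron transfer flavoprotein subunit Etfa 5 and 0. Its partner Etfdh had a single peak at the same place in both, of 1269 bp at 6.05 in control and 691 bp at 4.24 in Setd2-KO PTECs. Of 13 sphingolipid synthesis genes, 2 had a control intronic peak (15.4%, against 21.0% of all genes of that length) and 1 a Setd2-KO one (7.69%, against 6.99%), shares near those of all genes. Sptlc1, a subunit of serine palmitoyltransferase, which starts the pathway, had 4 control peaks in introns 3, 4, 6 and 7 and 1 Setd2-KO peak in intron 13 at 5.17, with no control peak there, and Sptlc2, another subunit, had 1 in its last intron and none in Setd2-KO PTECs.

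Genes that act in elongation, splicing and H3K36 methylation also had control intronic peaks. Of 18 transcription elongation genes, 13 had a control intronic peak and 2 a Setd2-KO one, with 48 and 2 peaks. Besides Supt6, Aff4, a scaffold of the super elongation complex, had 6 and 0, and Cdk12, a kinase of the polymerase tail, 7 and 1. Of 26 pre-mRNA splicing genes, 19 had a control and 13 a Setd2-KO intronic peak, with 88 and 21 peaks. Rbm39, Sf3b3 and Snrnp200, all linked to the spliceosome, had 11, 10 and 8 in control and 3 each in Setd2-KO PTECs, and all 3 Setd2-KO peaks of Rbm39 and of Snrnp200 overlapped a control peak. Of 15 methyltransferases, demethylases and readers of H3K36, 8 had a control and 4 a Setd2-KO intronic peak. Kdm2a, an H3K36 demethylase gene, had 9 and 1, Brd1, a reader in acetyltransferase complexes, 6 and 0, and Glyr1, a nucleosome-binding reader, 5 and 0. All of these list counts stand beside 21.0% and 6.99% of all genes of that length, and the lists were not matched to other transcribed genes.

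Setd2 itself (chr9:110532597-110618633) had 2 control intronic peaks, among 5 control peaks of all classes over 3077 bp, and no Setd2-KO peak. The intronic peaks were a peak of 1097 bp in intron 3 at a fold enrichment of 5.13, which crosses the acceptor edge of exon 4, and one of 403 bp in intron 16 at 3.69. Peaks over the gene do not measure recombination, so these values do not check the genotype labels.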

How the data were processed

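H3K36me3 ChIP-seq was analysed in control and Setd2-KO PTECs, 1 ChIP and 1 input library each, grouped by the labels. In 1 place the study describes the ChIP material as cysts and tumour masses of MYC mice, and it names a minimum fold enrichment that most of these peaks do not reach. The labels and the lists were followed.

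Per the submitters' processing notes, reads were trimmed (cutadapt 1.9.1, Trimmomatic 0.35), checked (FastQC), mapped to GRCm38 (Bowtie2 2.2.6) and peaks called with MACS2 2.1.1, separately for each ChIP library against its input. The deposited signal is the pileup of fragments at the summit. The deposited fold enrichment is the ratio of pileup to local background, each with 1 added. The deposited −log10 p and −log10 q values come from the authors' peak caller, and only −log10 q was used, as a filter. Local background was recovered from pileup and fold enrichment, and its lowest value was taken as genome-wide. No read count was used.

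Midpoints were placed on GENCODE M21. The reference transcript was the protein-coding transcript with the best APPRIS tag, then the longest. Eligible bases were counted from the annotation. Sequences are RefSeq GRCm38.p6. Shares have 95% Wilson intervals, medians order-statistic intervals. Functions were tested on simulated data. Python 3.11.15, pandas 2.3.3, scipy 1.17.1 and pysam 0.24.0 were used.

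The peaks described, the gene lists and alternatives were chosen with earlier results of these data known. Named were the 10 genes with the most control intronic peaks, the 10 with the most Setd2-KO intronic bases, the 5 with the most bases in each list and no peak in the other, the 5 strongest, longest and farthest peaks of each list, up to 3 genes per list by control intronic bases, and Setd2. Up to 3 genes per list with a Setd2-KO intronic peak, the background of Cwc22 and the order of single sites were described after their values were seen. Alternatives covered the threshold, the summit, the starts, the gene length, overlapping genes, zinc finger genes, local background, the overlap rule and the reference exons. Some named genes and 1 sequence that the rule selected are not reported here.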

Additional observations from a re-analysis of the deposited data

How the results depend on the processing

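Of 82 values recomputed under alternatives, 57 moved by less than their counting interval or, for counts, by less than 1.5 times, and the ratio of control to Setd2-KO intronic peaks stayed between 4.76 and 5.36. At a fold enrichment of at least 5, there were 276 control and 58 Setd2-KO intronic peaks, of which 12.7% and 63.8% overlapped a peak of the other list at that threshold. Of these control peaks, 2.93% lay in the first intron, 16.5% in the last and 81.5% within 1 kb of an exon, and the median distances were 434.5 bp and 608 bp. Genes of 20 to under 50 kb held 2913 and 569 peaks. Without zinc finger genes, by symbol, the ratio was 5.36, 9.85% of control peaks overlapped and 11.0% lay in the last intron. Overlap fell to 5.11% and 26.3% when 50% of both peaks had to overlap and was 19.9% and 75.4% when peaks within 1 kb counted. With the starts of all transcripts of coding genes left out, which removed 850 control and 153 Setd2-KO peaks, 13% of control peaks lay in the last intron and 82.2% within 1 kb of an exon, at median distances of 371 bp and 373.5 bp. With exons of the reference transcript only, 81.1% lay within 1 kb and the medians were 369 bp and 373 bp. The cause of these shifts was not tested. The median distance was longer in Setd2-KO than in control PTECs under each alternative except the one without zinc finger genes, where it was 306 bp against 317 bp. These alternatives reuse the same peaks. In the main analysis the intervals overlapped, at 299 to 366 bp in Setd2-KO and 311 to 339 bp in control PTECs, so no difference is read from them. No paired analysis was possible because each genotype had 1 ChIP library. With 1 library each, no value has a replicate error, and the depth behind each list limits which weak intronic sites could be called.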
